A study of Mus musculus with 7 samples.

Results

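The collagen genes were examined in Pax7-GFP+ cells sorted from injured mouse hind limb muscle, as every row of the deposited expression table whose symbol begins with Col, a number, the letter a and another number. That rule took 45 of the 23930 rows. Of these, 44 encode collagen chains, and 1, Col4a3bp, encodes a ceramide transfer protein that is no collagen chain and was counted apart.

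The study compared normocapnia (room air, 3 libraries) with hypercapnia (a chamber with 10% CO2, 4 libraries), to find what chronic CO2 retention changes in the transcripts of activated satellite cells, the stem cells of skeletal muscle. Both groups were littermates on C57BL/6 that carried a Pax7-Cre allele and a Lox-GFP reporter. All entered their condition at 12 weeks of age, stayed in it for 4 weeks, ate tamoxifen chow for the first 2 weeks and were collected at 16 weeks. The study's methods place the collection 3 days after cardiotoxin, a venom toxin that destroys myofibers, was injected into the tibialis anterior and gastrocnemius muscles of both groups. The title of the deposited table names 40 hours instead, and the sources used here do not settle the difference. Because the reporter is switched on by Cre at the Pax7 locus and then stays on, a sorted cell may no longer express Pax7. No label says how many animals went into a library, so the spread between libraries may be partly technical.

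Expression was measured with a targeted panel (Ion AmpliSeq) that amplifies a short piece of each transcript, and is given as RPM, reads per 1000000 reads assigned to the panel. The libraries held 14527445 to 23388710 reads, so 1 read was worth 0.0428 to 0.0688 RPM and 3 reads, taken as the floor, 0.128 to 0.207 RPM. Amplicons differ in efficiency, so each gene was compared between libraries and not with other genes. Hereafter normocapnia 1 to 3 and hypercapnia 1 to 4 are the library numbers of the labels, and values are always given in that order.

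The libraries stood apart from each other in their cell type markers. Pax7, the transcription factor that defines satellite cells, was at 268, 8.25 and 4.34 RPM in normocapnia and at 21.5, 20.1, 79.5 and 59.7 RPM in hypercapnia. The summed level of 10 satellite cell markers ran from 571 to 2445 RPM in normocapnia and from 676 to 1213 RPM in hypercapnia, a sum in which Sdc4 was the most abundant gene. Without Sdc4 it ran from 100.6 to 1722 RPM and from 247 to 763 RPM, and 9 of the 10 satellite cell markers were highest in normocapnia 1. The sum of 10 macrophage markers ran from 12033 to 34607 and from 19665 to 24518 RPM. The macrophage gene Lyz2 reached 8354 to 29108 RPM in libraries labelled as Pax7+ stem cells. Of all genes, 1.43% passed the test as higher in hypercapnia and 1.14% as lower, by limma on log2(RPM + 1) with thresholds of 0.05 for the unadjusted p and 1.5 for the fold. After Benjamini-Hochberg adjustment 0 of 23930 genes (0%) passed, whereas 1114 had an unadjusted p under 0.05.

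Collagens are triple helices of 3 chains, which may come from 1 gene or several. Fibrillar collagens (types I, III and V in muscle) form the tensile fibers of the interstitium, type IV forms the sheet of the basement membrane under which the satellite cell lies, type VI forms beaded filaments that join both, and fibril-associated collagens and multiplexins decorate these networks. In regenerating muscle most fibrillar collagen is made by fibro-adipogenic progenitors and tendon-related fibroblasts, while satellite, endothelial and mural cells contribute to the basement membrane. In bulk RNA of sorted cells, fewer cells of a type and less RNA per cell cannot be told apart.

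No collagen gene passed the test between hypercapnia and normocapnia. With limma, 0 of 44 were called higher and 0 lower, beside 1.43% and 1.14% of all genes. At those shares a count of 0 among 44 genes does not set the collagens apart. Of the 44, 0 had an unadjusted p under 0.05 (limma), beside 1114 of all 23930 genes, and the lowest adjusted p was 0.915. By sign, 25 were higher in hypercapnia and 17 lower, and the other two, Col9a2 and Col10a1, had 0 reads in all 7 libraries. The median log2 fold change of the 44 genes was 0.09, beside 0.02 over all genes tested and 0.16 over genes that averaged at least 1 RPM. The groups overlapped for every collagen gene, and they did so for all but 9.62% of the genes that averaged at least 10 RPM. On the recovered reads, edgeR called 0 of the 31 collagens that passed its filter, where it called 6.03% of all genes tested. Without a filter edgeR called 1 of 44, Col9a1, beside 4.38% of all genes. DESeq2 called 0 of 40, beside 6.25%.

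Not all 44 were measured equally well. An average of 10 RPM or more over the 7 libraries was reached by 15 collagens, 7 averaged 1 to 10 RPM, and 22 were under 1 RPM. At least 1 read was present in every library for 26 of them. Among the 8229 genes that averaged at least 10 RPM, 5.54% were called in either direction and 9.62% had groups that did not overlap, and both counts were 0 for the 15 collagens, too few genes to set this apart from those shares. The plot of these 15 genes by library shows that most of their variation lay inside the groups.

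**Figure D1:**
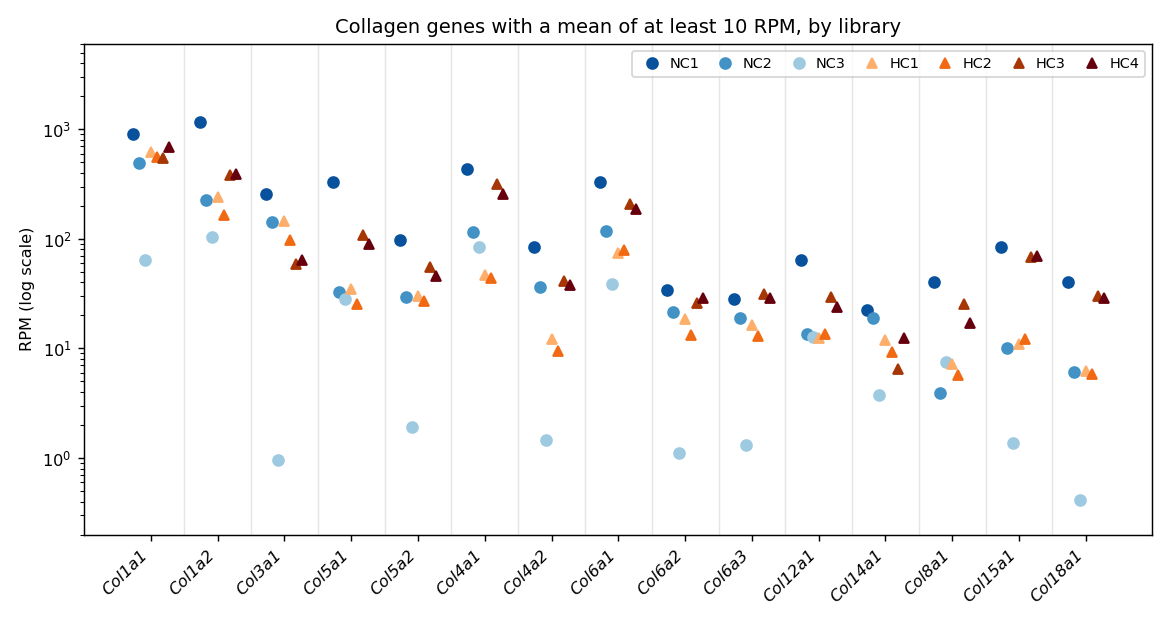
RPM on a log scale for the 15 collagen genes that averaged at least 10 RPM, 1 point per library (circles, normocapnia 1 to 3, NC1 to NC3; triangles, hypercapnia 1 to 4, HC1 to HC4). Normocapnia 1 is the highest point for 14 of the 15 genes and normocapnia 3 the lowest for 11, and the hypercapnia points overlap the normocapnia points for every gene.

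Type I collagen, the main tensile fibril of muscle connective tissue, showed the pattern most plainly. Col1a1, its alpha 1 chain, was at 908, 489.9 and 64.4 RPM in normocapnia and at 623, 556, 549 and 684 RPM in hypercapnia. The 4 hypercapnia libraries sat close together, between a higher and a much lower normocapnia library. The log2 fold change was 0.97 ± 0.92 (SE) with a 95% interval from -1.32 to 3.26. Col1a2, its alpha 2 chain, was at 1165, 227 and 104 RPM and at 240.2, 166, 382 and 394 RPM, a log2 fold change of -0.12 ± 0.88. All of its hypercapnia values lay inside the normocapnia range.

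Type III collagen, which forms thin reticular fibers and is laid down early in repair, spanned the widest range. Col3a1 was at 256, 142 and 0.964 RPM in normocapnia and at 144, 96.7, 58.6 and 64.5 RPM in hypercapnia. Normocapnia 3 held only 14 Col3a1 reads, and normocapnia 1 was 265-fold higher. The log2 fold change was 1.05 ± 1.80 (SE), with an interval from -3.44 to 5.54, and it was -1.15 without normocapnia 3.

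Type V collagen regulates the diameter of type I fibrils. Col5a1 was at 329, 32.5 and 28.4 RPM in normocapnia and at 34.9, 25.3, 109 and 89.0 RPM in hypercapnia (log2 fold change -0.31 ± 1.06). Col5a2 was at 98.2, 29.4 and 1.93 RPM and at 29.8, 27.3, 55.6 and 45.8 RPM (0.92 ± 1.22). Normocapnia 1 was the highest library for both chains, and the low Col5a2 value of normocapnia 3, 28 reads, had no counterpart in Col5a1.

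The basement membrane chains Col4a1 and Col4a2, which assemble together in most tissues, lie next to each other on chromosome 8. Col4a1 was at 435, 115 and 84.1 RPM in normocapnia and at 46.5, 44.3, 316 and 256 RPM in hypercapnia, a log2 fold change of -0.50 ± 1.03. Col4a2 was at 85.0, 36.1 and 1.45 RPM and at 12.1, 9.40, 41.2 and 37.6 RPM, a log2 fold change of 0.13 ± 1.37. For both chains hypercapnia 1 and 2 were lower than hypercapnia 3 and 4, and for Col4a1 they were also lower than every normocapnia library. The other type IV chains, Col4a3 to Col4a6, were all under a mean of 1 RPM.

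Type VI collagen forms beaded filaments and is a known component of the satellite cell niche. Col6a1 was at 329.9, 118 and 38.9 RPM in normocapnia and at 74.0, 79.8, 208 and 188 RPM in hypercapnia (log2 fold change 0.10 ± 0.83). Col6a2 was at 33.8, 21.6 and 1.10 RPM and at 18.4, 13.2, 25.8 and 29.0 RPM (0.88 ± 1.04), and Col6a3 at 28.1, 18.8 and 1.31 RPM and at 16.3, 12.9, 31.4 and 28.6 RPM (0.99 ± 0.97). Col6a2 and Col6a3 followed each other across the 7 libraries, with normocapnia 3 far under the rest, and Col6a3 was the 1 gene of the 15 that peaked outside normocapnia 1, in hypercapnia 3.

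The multiplexins Col15a1 and Col18a1 sit in basement membranes, and the end of the Col18a1 protein is released as endostatin. Col15a1 was at 83.8, 10.1 and 1.38 RPM in normocapnia and at 11.0, 12.1, 67.9 and 70.2 RPM in hypercapnia, with a log2 fold change of 1.18 ± 1.44, the largest of the 15. Col18a1 was at 39.96, 6.07 and 0.413 RPM and at 6.21, 5.78, 30.3 and 28.6 RPM, a log2 fold change of 0.97 ± 1.31. In both genes normocapnia 1 and hypercapnia 3 and 4 were high, the remaining libraries low, and normocapnia 3 held 20 and 6 reads respectively.

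The last 3 genes above 10 RPM belong to other networks. Col12a1, a fibril-associated collagen of tendon and fascia, was at 63.4, 13.6 and 12.7 RPM in normocapnia and at 12.4, 13.6, 29.4 and 23.9 RPM in hypercapnia (log2 fold change -0.26 ± 0.67). Col14a1, of the same class, was at 22.3, 19.1 and 3.79 RPM and at 12.0, 9.30, 6.498 and 12.5 RPM (-0.28 ± 0.62). Col8a1, a network-forming collagen of vessel walls, was at 40.5, 3.89 and 7.57 RPM and at 7.23, 5.73, 25.6 and 17.0 RPM (0.08 ± 0.90). Col14a1 was the only one of the 3 in which hypercapnia 3 was the lowest hypercapnia library.

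**Figure D2:**
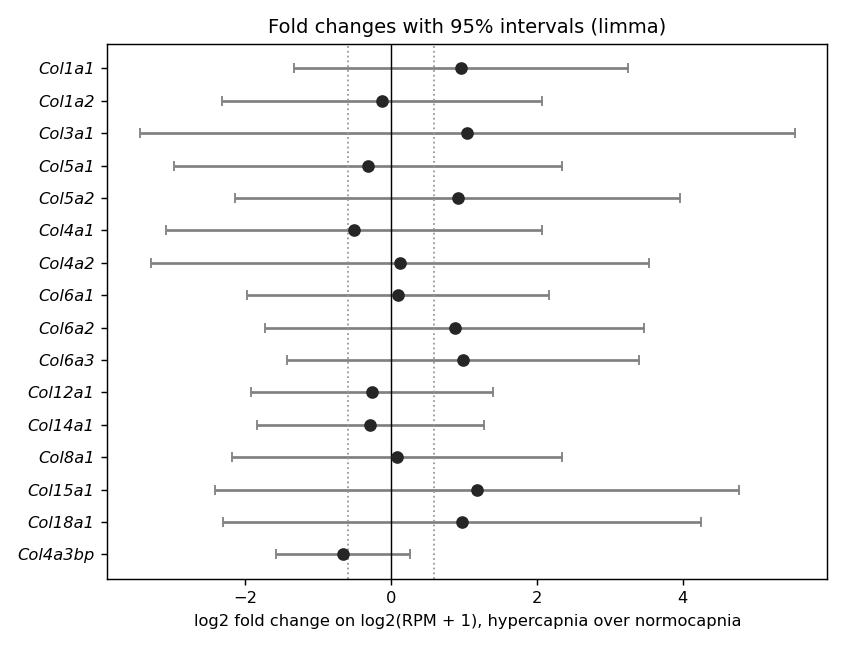
Log2 fold change (hypercapnia over normocapnia, on log2(RPM + 1), limma) of the 15 collagen genes and of Col4a3bp, with 95% intervals as bars and dotted lines at a fold change of 1.5 in either direction. Every interval includes 0 and extends past 1.5-fold in both directions for the 15 collagens, and the Col3a1 interval, from -3.44 to 5.54, is the widest.

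The direction of the collagens depended on single libraries and on the model. With all 7 libraries, 10 of the 15 genes were higher by sign and 5 lower, with a median log2 fold change of 0.13, which was also 0.13 over all 8229 genes at this level. The split was 8 to 7 with median-of-ratios scaling and 7 to 8 with quantile normalization. On the recovered reads it turned, to 6 higher and 9 lower in both edgeR (median -0.26) and DESeq2 (median -0.30), and to 5 and 10 in edgeR without a filter (median -0.28). Without normocapnia 1, all 15 were higher by sign, with a median of 1.19 beside 0.27 over the 8229 genes. Without normocapnia 3, all 15 were lower by sign, with a median of -0.64 beside -0.07. Without hypercapnia 3 or hypercapnia 4 the split was 7 to 8 (medians -0.11 and -0.08), and without hypercapnia 2 it was 12 to 3 (median 0.48). Of these 15, the test called none without normocapnia 1, where 1990 of all 23930 genes were called. It called 1 without normocapnia 3, the fibril-associated Col14a1 at -1.01, beside 616 of all genes. Each of the 15 genes changed sign in at least 1 of the 17 alternative analyses.

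The spread itself was larger than for most genes. The range over 7 libraries had a median of 3.80 on the log2 scale for the 15 collagens, beside 1.47 for the 8229 genes at this level, and lay above that median in 15 of 15. Inside normocapnia the medians were 3.66 and 1.26, and inside hypercapnia 1.28 and 0.52. Col1a1 had the narrowest range inside hypercapnia, 0.32, and Col4a1 the widest, 2.81. Normocapnia 1 was highest for 14 of the 15 collagens but for only 30.3% of the 8229 genes, and normocapnia 3 was lowest for 11 of the 15 and for 49.5% of all. The high normocapnia 1 was not particular to the collagens, since 9 of the 10 satellite cell markers also peaked there. Normocapnia 3 differed as a whole library, with 16.6% of its reads in its 10 most abundant genes, beside 8.36% to 12.1% in the others. It also had the fewest genes of at least 1 RPM, 10619 beside 11322 to 13932.

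Summed over the 44 genes, collagen expression was 4035, 1309.6 and 358 RPM in normocapnia and 1309.6, 1101, 1993 and 2020.4 RPM in hypercapnia. The normocapnia libraries differed 11.3-fold from highest to lowest and the hypercapnia libraries 1.84-fold. Their means were 1901 ± 1909 (SD, n = 3) and 1606 ± 471 RPM (SD, n = 4). Fibrillar chains gave 56.5% to 71.4% of the collagen reads in normocapnia and 58.9% to 82.7% in hypercapnia, and basement membrane chains 11.6% to 24.0% and 4.51% to 18.1%. These shares depend on amplicon efficiency and serve only to compare libraries, which overlapped in both classes.

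Inside hypercapnia the collagens did not all order the libraries alike. Hypercapnia 1 and 2 were both below hypercapnia 3 and 4 for 12 of the 15 genes, an order that 40.3% of the 8229 genes also had. Col3a1 alone had the opposite order, which 28.2% of the genes had, and Col1a1 and Col14a1 had neither. As a result the ratio of Col3a1 to Col4a1 was 3.10 and 2.18 in hypercapnia 1 and 2 but 0.186 and 0.252 in hypercapnia 3 and 4, and 0.588, 1.24 and 0.0115 in normocapnia. This description was chosen after the values were seen, and the library numbers are not a condition of the study.

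For 3 of the 15 genes, picked by no rule set beforehand, the 120 bases before the transcription start are shown from RefSeq (GRCm38.p6). Matches to TATAAA or GGGCGG on either strand are in capitals. Col3a1 (chr1:45311418-45311537, plus strand) ran against the common order, and Col8a1 (chr16:57754738-57754857, minus strand) and Col15a1 (chr4:47207892-47208011, plus strand) followed it. Each stretch overlaps no annotated exon.
Col3a1: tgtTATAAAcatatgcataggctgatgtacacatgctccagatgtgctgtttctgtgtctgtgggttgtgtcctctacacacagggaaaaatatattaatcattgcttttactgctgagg
Col8a1: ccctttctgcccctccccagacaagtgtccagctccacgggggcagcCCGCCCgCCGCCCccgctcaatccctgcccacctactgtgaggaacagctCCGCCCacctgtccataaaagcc
Col15a1: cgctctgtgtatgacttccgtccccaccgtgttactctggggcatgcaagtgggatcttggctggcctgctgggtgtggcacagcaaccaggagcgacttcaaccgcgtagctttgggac

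The Col3a1 stretch is 40% G and C and holds 1 TATAAA, 117 bases before the start. The Col8a1 stretch is 67.5% G and C and holds GGGCGG, the core of a GC box, 3 times on the opposite strand, 73, 66 and 23 bases before the start. The Col15a1 stretch is 60% G and C and holds neither. In windows from 250 bases before to 50 bases after the start, on both strands, GGGCGG was in 22 of the 35 collagens that have such a window, 62.9%, beside 38.2% of 27025 genes. CCAAT was in 13 of 35, 37.1% beside 41.1%, and TATAAA in 5 of 35, 14.3% beside 15.7%. These letters are a description and say nothing of which factors bind there.

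Because several collagens are built from chains of different genes, the ratio of partner chains was also followed across libraries. Col6a2 over Col6a3 was the most even, at 1.20, 1.15 and 0.842 in normocapnia and at 1.13, 1.02, 0.823 and 1.01 in hypercapnia. Col1a1 over Col1a2 was 0.779, 2.16 and 0.617 in normocapnia and 2.59, 3.36, 1.44 and 1.74 in hypercapnia. It was lowest in normocapnia 1 and 3, while normocapnia 2 lay among the hypercapnia libraries.

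Other pairs set normocapnia 3 apart. Col4a1 over Col4a2 was 58.2 in that library and 3.18 to 7.67 in the other 6. Col6a1 over Col6a2 was 35.3 there and 4.01 to 9.77 elsewhere, and Col5a1 over Col5a2 was 14.7 there and 0.928 to 3.35 elsewhere. The lower chain of each pair had 16 to 28 reads in normocapnia 3, and the groups overlapped for every ratio. The plot of chain ratios shows these values side by side.

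**Figure D3:**
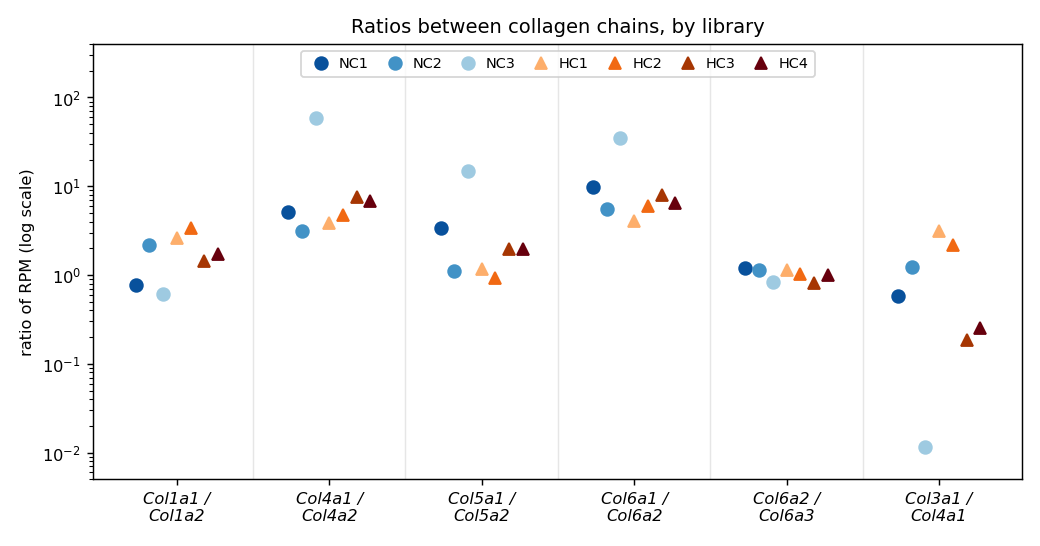
Ratio of RPM between pairs of collagen genes on a log scale, with 1 point per library (circles, normocapnia; triangles, hypercapnia). Normocapnia 3 is far above the other libraries for Col4a1 over Col4a2 (58.2), Col5a1 over Col5a2 (14.7) and Col6a1 over Col6a2 (35.3) and far below for Col3a1 over Col4a1 (0.0115), while Col6a2 over Col6a3 stays between 0.823 and 1.20.

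Of the 7 collagens with a mean of 1 to 10 RPM, all were lowest in normocapnia 3, and 4 were highest in normocapnia 1. Col26a1 was at 50.4, 1.84 and 0.069 RPM in normocapnia and at 2.23, 1.56, 7.06 and 5.62 RPM in hypercapnia, where the normocapnia 3 value was a single read. Col5a3, a further type V chain, was at 23.2, 5.30 and 0 RPM and at 4.45, 4.07, 4.81 and 5.62 RPM. Normocapnia 1 alone exceeded all hypercapnia libraries in both genes. Col11a1, a fibrillar chain of cartilage and tendon, was at 8.48, 6.20 and 1.72 RPM and at 5.01, 6.63, 11.8 and 17.6 RPM (log2 fold change 0.84 ± 0.60). Col22a1, a collagen of the myotendinous junction, was at 6.65, 1.11 and 0 RPM and at 0.813, 3.82, 12.0 and 6.30 RPM (1.09 ± 0.96). Both peaked in hypercapnia libraries, but their groups overlapped. These 4 genes were chosen after their values were seen.

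Of the 22 collagens under 1 RPM, log2 fold changes ran from -0.27 for Col9a1, a cartilage chain read only in normocapnia 1, to 0.44 for Col7a1, the anchoring fibril chain. Col2a1, the main chain of cartilage, stayed at or under 0.502 RPM in all libraries.

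Col4a3bp had another pattern than the collagens whose name it shares. It was at 42.8, 75.2 and 126 RPM in normocapnia and at 52.5, 47.3, 48.7 and 39.2 RPM in hypercapnia. It was highest in normocapnia 3, the library lowest for most collagens, and its log2 fold change was -0.66 ± 0.37 with an adjusted p of 0.915 (limma).

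The genes that process collagen were followed next, in a list of 36 genes of which 35 had a row. They hydroxylate and fold the chains in the endoplasmic reticulum, carry them out, trim the propeptides and cross-link the fibrils. By sign 23 were higher in hypercapnia and 12 lower, and the median log2 fold change was 0.23 beside 0.02 over all genes. Limma called 0 of 35, beside 1.43% (higher) and 1.14% (lower) of all genes. At those shares a list of this size says nothing by a count of 0. Lox, the lysyl oxidase that starts cross-linking, was at 60.1, 58.3 and 83.0 RPM in normocapnia and at 26.9, 19.8, 54.0 and 46.7 RPM in hypercapnia. All 4 hypercapnia values lay below all 3 normocapnia values, and the log2 fold change was -0.94 ± 0.39 with an adjusted p of 0.915 (limma). Lox was not called by limma but was called by edgeR (-1.09, adjusted p 0.758) and DESeq2 (-1.14, adjusted p 0.486). Its relative Loxl3 was at 6.65, 3.68 and 0.620 RPM and at 5.65, 7.19, 12.0 and 11.9 RPM (1.34 ± 0.59, not called by limma). It was called by edgeR (1.391, adjusted p 0.758) and DESeq2 (1.355, adjusted p 0.519). Loxl4 stayed at or under 1.56 RPM in every library.

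The most abundant processing genes showed small differences. P4hb, the beta subunit of prolyl 4-hydroxylase, had a log2 fold change of -0.26 ± 0.26, Ppib, a proline isomerase of the same compartment, -0.10 ± 0.08, and Crtap, its partner in prolyl 3-hydroxylation, -0.08 ± 0.32. P4hb and Crtap were highest in normocapnia 3, at 1012 and 239.8 RPM, unlike most collagens. None of these 3 genes passed the test.

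Among collagen receptors, 9 of 10 listed genes had a row, and 7 were higher by sign and 2 lower (median log2 fold change 0.31). Limma called 0 of 9, a count near the same shares of all genes. Itgb1, the integrin beta 1 chain shared by all collagen-binding integrins, was at 638, 466 and 640.2 RPM in normocapnia and at 398, 348, 441 and 389.5 RPM in hypercapnia. Its groups did not overlap, but the log2 fold change of -0.55 ± 0.14 was short of 1.5-fold, and the adjusted p was 0.836 (limma). Itgb1 was called by DESeq2 (-0.76, adjusted p 0.52) and edgeR (-0.71, adjusted p 0.758), but not by edgeR without a filter. Itga1, a collagen-binding partner of Itgb1, was at 19.4, 24.4 and 35.4 RPM and at 5.05, 2.61, 30.2 and 20.0 RPM (-1.28 ± 0.85). Ddr2, a receptor kinase for fibrillar collagen, was at 52.9, 6.76 and 1.24 RPM and at 19.5, 22.0, 42.9 and 37.5 RPM (1.61 ± 1.11). Ddr2 shared with the collagens the high normocapnia 1 and the low normocapnia 3. Lair1, an inhibitory collagen receptor of leukocytes, had a log2 fold change of 0.50 ± 0.50.

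Among 9 enzymes that degrade collagen, 8 were higher by sign and 1 was lower (median log2 fold change 0.34). Limma called 1 of 9, higher, beside 1.43% of all genes. A single call in so short a list does not set the list apart. Mmp8, the collagenase of neutrophils, rose from 7.54, 17.0 and 16.7 RPM in normocapnia to 34.6, 27.0, 35.0 and 32.6 RPM in hypercapnia. Every hypercapnia value was above every normocapnia value, with a log2 fold change of 1.25 ± 0.30 and an adjusted p of 0.809 (limma), and the call was lost with median-of-ratios scaling, quantile normalization and the replicate block. Mmp9, a gelatinase, was at 245, 1377 and 295 RPM and at 253, 158, 220.5 and 234 RPM (-1.12 ± 0.65), a difference carried by normocapnia 2. Mmp9 was not called by limma but was called by edgeR (-1.68, adjusted p 0.758) and DESeq2 (-1.71, adjusted p 0.386). Mmp14, Pepd and Ctsk had log2 fold changes of 0.03 ± 0.40, 0.27 ± 0.28 and 0.34 ± 0.22.

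Markers of other collagen-producing cells differed between libraries as well. The summed mural cell markers (7 genes, among them Acta2 and Rgs5) were 1947, 293 and 127 RPM in normocapnia and 215, 167, 784 and 550.1 RPM in hypercapnia. Acta2 made up most of this sum (1674 RPM in normocapnia 1). Gene by gene, all 7 were higher in normocapnia 1 than in the other normocapnia libraries and 5 were lowest there in normocapnia 3, but over all 7 libraries 5 were highest in hypercapnia 3 and only 2 in normocapnia 1. The endothelial markers (8 genes) were at 233, 111 and 90.2 RPM and at 65.1, 51.9, 547 and 411 RPM, and the tendon cell markers (7 genes) at 272, 253 and 63.5 RPM and at 104, 129, 314 and 469 RPM.

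The fibro-adipogenic markers, for 11 of 12 listed genes and without collagens, summed to 1447, 1494 and 1481 RPM in normocapnia and to 738, 851, 2459 and 2954 RPM in hypercapnia. The even normocapnia sums held genes of opposite order. Dcn, the most abundant, was at 528, 566 and 890.2 RPM in normocapnia, whereas 7 of the 11 genes were lowest in normocapnia 3 among those libraries, and without Dcn the sums were 918, 928 and 591 RPM. Schwann cell markers (6 genes) ran from 9.98 to 31.4 RPM and from 11.9 to 109.8 RPM. The summed macrophage markers were lowest in normocapnia 1 and highest in normocapnia 3, an order set by Lyz2. Without Lyz2 they were at 3679, 9652 and 5499 RPM in normocapnia, highest in normocapnia 2, and 5 of the 10 genes were lowest among the normocapnia libraries in normocapnia 3 and 5 in normocapnia 1. No listed marker was at 0 in all libraries, and of all marker lists the test called only Cspg4 of mural cells and Adgre1 of macrophages, both higher in hypercapnia with an adjusted p of 0.915 (limma), 2 of 59 genes beside 1.43% of all genes. The part of these cells in the collagen values was not tested. The plot of summed levels shows the collagens beside the 7 marker lists.

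**Figure D4:**
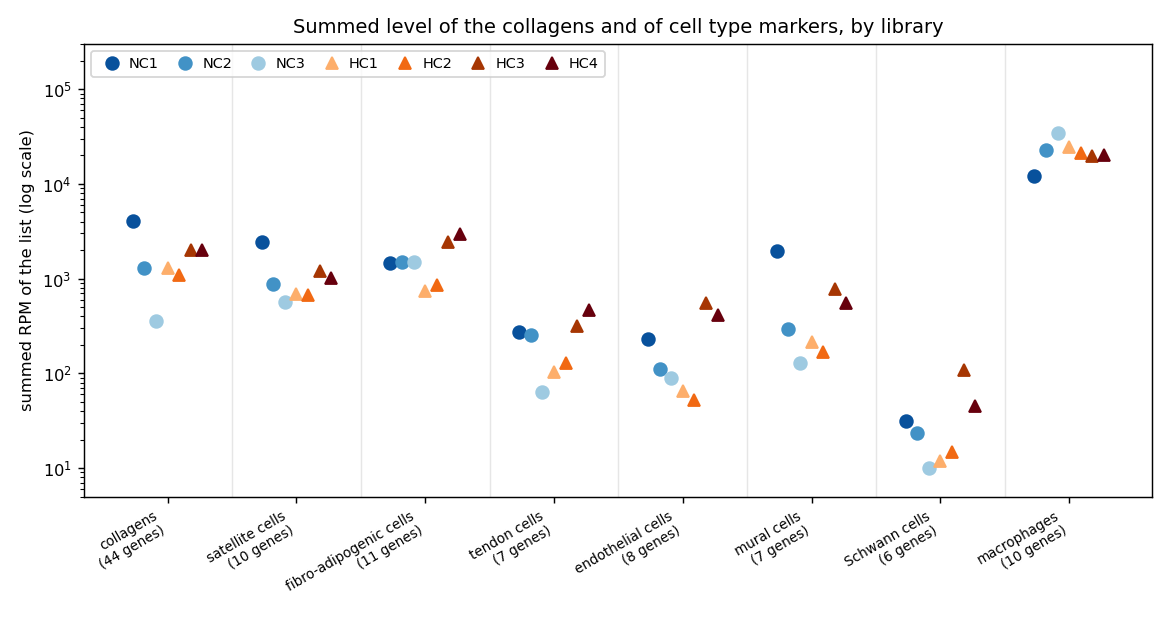
Summed RPM on a log scale of the 44 collagens and of 7 lists of cell type markers, with 1 point per library (circles, normocapnia; triangles, hypercapnia). Among the normocapnia libraries the sums of the collagens and of the satellite, mural, endothelial, tendon and Schwann cell markers are highest in normocapnia 1 and lowest in normocapnia 3, though without Sdc4 the satellite cell sum is lowest in normocapnia 2, and 4 of the 7 tendon cell markers are highest there. The macrophage sum has the opposite order, which rests on Lyz2, and the fibro-adipogenic sum lies between 1447 and 1494 RPM, where Dcn offsets other genes.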

How the data were processed

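Pax7-GFP+ cells were sorted from hind limb muscle, and RNA was sequenced with the Ion AmpliSeq mouse transcriptome panel on an Ion S5 instrument. The deposited table holds RPM values, which the authors made by scaling the reads of each library to 1000000 reads assigned to the panel, and names the Transcriptome Analysis Console in the submitters' processing notes. The aligner was not given in the sources used here, nor was the genome build. Whole reads, that is counts, were recovered from the deposited RPM (100% of values whole within 0.05 reads), and library totals were 14527445 to 23388710 reads. Floors and intervals cover counting error or the spread between libraries only. Groups came from the labels. The 21 pairs of libraries all differed beyond sampling noise.

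All 23930 genes were fitted with limma 3.58.1 (R 4.3.3) on log2(RPM + 1), with a pseudocount of 1 RPM, no filter and no covariate. Calls needed a fold change above 1.5 and p under 0.05 before adjustment, the study's thresholds, and Benjamini-Hochberg adjusted values are over all genes. Fold changes on this scale understate the change of low genes. The members and lists were chosen with earlier results of these data known. The text names the rows of the rule with a mean of at least 10 RPM or a call, the 3 genes with the smallest p and the 3 with the highest mean of each list of other pathway genes, and the leading markers. Loxl2, Itga10 and Pi16 had no row. The 17 alternatives covered pseudocounts, a filter, scalings, the prior variance, edgeR 4.0.16, DESeq2 1.42.0, a replicate block and leaving out each library. The fits were tested on simulated data. Promoter sequences are from RefSeq (GRCm38.p6), which held windows for 35 of 44 collagens.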

Additional observations from a re-analysis of the deposited data

How the results depend on the processing

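Under the 17 alternatives the number of collagens called higher was 0 except without normocapnia 1. There 3 of 44 (Col7a1, Col13a1 and Col19a1, all under 1 RPM) were called, beside 1990 of all 23930 genes in either direction. Leaving out single libraries thus gave 0 to 3. The number called lower was 0 except for 1 gene in edgeR without a filter (Col9a1) and 1 without normocapnia 3 (Col14a1). These stood beside 1049 and 616 of all 23930 genes in either direction, and leaving out single libraries gave 0 to 1. The median log2 fold change of the collagens ran from -0.15 to 0.54. Median-of-ratios and quantile scaling took the median of genes with at least 1 RPM from 0.16 to 0.04 and -0.01, and split the 15 collagens of at least 10 RPM 8 to 7 and 7 to 8 between higher and lower, beside 10 to 5 in RPM, 6 to 9 in edgeR and DESeq2 and 5 to 10 in edgeR without a filter. With the replicate block 0 collagens were called higher and 0 lower, and 598 genes were called in all beside 615. Deviations of same-numbered libraries correlated at -0.35, 0.50 and -0.04. The 0.50, of normocapnia 2 and hypercapnia 2, was the highest between any normocapnia and hypercapnia library, though normocapnia 2 and hypercapnia 1 reached 0.45. So few libraries cannot show whether the shared replicate numbers mark a pairing. Over all genes, 1990, 1205 and 616 were called without normocapnia 1, 2 and 3, and 385, 376, 572 and 477 without hypercapnia 1 to 4. The count was 802 with edgeR, 1049 with edgeR without a filter, and 1304 with DESeq2. The adjusted threshold was passed by 28 genes in DESeq2, 8 without normocapnia 1 and 1 without normocapnia 3, none of them a collagen. Among other genes, the call of Mmp8 was lost with median-of-ratios scaling, quantile scaling and the replicate block, at log2 fold changes of 1.10 to 1.24. Lox was called in 6 alternatives, Loxl3 in 7, Itgb1 in 5, Mmp9 in 3, and Col4a3bp in 3, where it was at -1.02 to -1.11. Ddr2 and Loxl4 were called only without normocapnia 1. The cause of these differences was not tested. Whether depth limited the 22 collagens under 1 RPM, for which 1 read was worth up to 0.0688 RPM, was not tested.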
